A study of Mus musculus with 6 samples.

Results

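The acrosome and sperm-egg fusion genes examined here were Acr, Acrv1, Acrbp, Spaca1, Zpbp, Zpbp2, Spata16, Dpy19l2 and Izumo1, in testis RNA of male C57Bl/6 mice. They were chosen by name, as every probe of the array that the platform annotation assigns to 1 of these 9 genes. The array carried 45281 probes, of which 15 belonged to 8 of the genes. Dpy19l2 had no probe with that symbol and has no value here. The mice were 4 months old. The standard diet group (SD) was represented by mice 1, 2 and 5, and the Western-like diet group (WD), which the labels call high fat, by mice 3, 4 and 6. Per the study's methods, the WD males ate a diet rich in sucrose and butter from weaning and the SD males ate standard chow. The mice of each diet were picked at random for the arrays after the animals with the strongest effects of diet had been left out. Each mouse had 1 array, and no number is shared by both diets in the titles.

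The acrosome is a large secretory vesicle that round spermatids build from Golgi-derived vesicles and flatten over the nucleus, and whose contents are released when sperm meet the egg. Its matrix holds proteases and their binding partners, its inner membrane and the nuclear envelope below it hold the proteins that shape and anchor it, and some of its membrane proteins are exposed by the acrosome reaction and then bind and fuse with the egg. Men and mice in which it fails to form or stay attached have round-headed sperm, a condition called globozoospermia. The genes are transcribed mostly in meiotic and early haploid germ cells, so that in whole testis fewer such cells and less RNA per cell cannot be told apart.

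Promoter sequences of the members are shown because several of these genes are active in haploid cells, where the activator CREM binds the cAMP response element. A sequence of 300 bases, from 250 before to 50 after the transcription start site, was available from RefSeq (build GRCm38.p6) for 8 of the 9 genes, while that of Acr was not analysed here. The full element TGACGTCA, which reads the same on both strands, occurred in 1 of these genes, Izumo1, and in 1.79% of all 32851 promoter sequences of that length. Its core TGACG, searched on both strands as TGACG and CGTCA, occurred in 5 of the 8 genes (Acrbp, Spaca1, Zpbp2, Dpy19l2 and Izumo1) and in 20.8% of all the sequences, where each full element holds it on both strands. The core began 18 bases before the start site in Acrbp, 147 before in Zpbp2 and 11 bases into the transcript in Dpy19l2. In Spaca1 there were cores at 69 and 59 bases before, and in Izumo1 the full element began 96 bases before. Genes were counted when any of their sequences held the letters, whereas the shares are of single sequences, and a gene such as Spaca1 has more than 1. A match of letters is a description and not a binding site. The sequences of the gene with the widest diet difference (Acrbp), of the gene with a repeated core (Spaca1) and of the gene with the full element (Izumo1) follow 5′ to 3′ on the strand of the gene, with the core or full element in capitals.
Acrbp, chr6:125049677-125049976, plus strand: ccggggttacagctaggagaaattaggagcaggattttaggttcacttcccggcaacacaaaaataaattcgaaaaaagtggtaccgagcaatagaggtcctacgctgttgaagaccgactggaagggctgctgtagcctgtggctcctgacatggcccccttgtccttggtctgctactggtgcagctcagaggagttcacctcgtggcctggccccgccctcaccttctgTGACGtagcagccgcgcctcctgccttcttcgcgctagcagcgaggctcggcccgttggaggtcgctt
Spaca1, chr4:34050016-34050315, minus strand: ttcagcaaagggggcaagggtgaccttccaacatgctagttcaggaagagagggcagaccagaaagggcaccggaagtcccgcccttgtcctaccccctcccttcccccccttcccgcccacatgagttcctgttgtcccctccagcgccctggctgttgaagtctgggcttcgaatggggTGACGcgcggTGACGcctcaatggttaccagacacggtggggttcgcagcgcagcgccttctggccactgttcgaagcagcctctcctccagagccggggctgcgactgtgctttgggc
Izumo1, chr7:45621561-45621860, plus strand: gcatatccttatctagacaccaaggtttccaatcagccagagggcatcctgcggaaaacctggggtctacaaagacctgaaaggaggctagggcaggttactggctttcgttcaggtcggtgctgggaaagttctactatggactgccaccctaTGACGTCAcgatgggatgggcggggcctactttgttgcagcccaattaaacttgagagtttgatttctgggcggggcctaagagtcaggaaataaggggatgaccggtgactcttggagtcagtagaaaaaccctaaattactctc

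Between 19026 and 21309 probes were detected per mouse at a detection p under 0.05, which GenomeStudio derives from negative control beads. The raw median intensity lay between 120.1 and 172.5, and mice 5 (SD) and 6 (WD) had the dimmest arrays. Values below are normalized log2 intensities, and a difference of 1 is a doubling. They are listed in the order of mice 1, 2 and 5 for SD and 3, 4 and 6 for WD, and differences are WD minus SD. A probe was tested when detected on at least 3 of the 6 arrays, which 19763 probes were, and diets were compared with limma, with p-values adjusted over all of them (Benjamini-Hochberg). Over the tested probes 0 (0%) had an adjusted p under 0.05 and 1013 (5.13%) an unadjusted p under 0.05. WD was higher at 506 of these (2.56% of the tested probes) and lower at 507 (2.57%). At 10.2% of the tested probes all mice of one diet lay above all mice of the other.

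The RNA of all 6 testes carried the transcripts of the acrosome genes at a level well above background. Of the 15 probes 13 were detected on all 6 arrays, with raw intensities between 690.2 and 12649, and each of the 8 genes had at least 1 such probe. The dim probe of Spaca1 (ILMN_1239790) was detected in SD mice 1 and 5 and in WD mice 3 and 6. A probe of Spata16 (ILMN_1243452) was detected in 0 of 6 mice, with detection p between 0.121 and 0.95, and was not tested. Intensities of different probes also depend on how well each binds its target, so the levels of the genes were not ranked. Of elongating spermatid markers 9 of the 9 on the array, and of spermatocyte markers 7 of 10, were detected on all arrays. Of epididymis markers 1 of 5 was detected on all arrays and 3 were detected on no array.

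**Figure D1:**
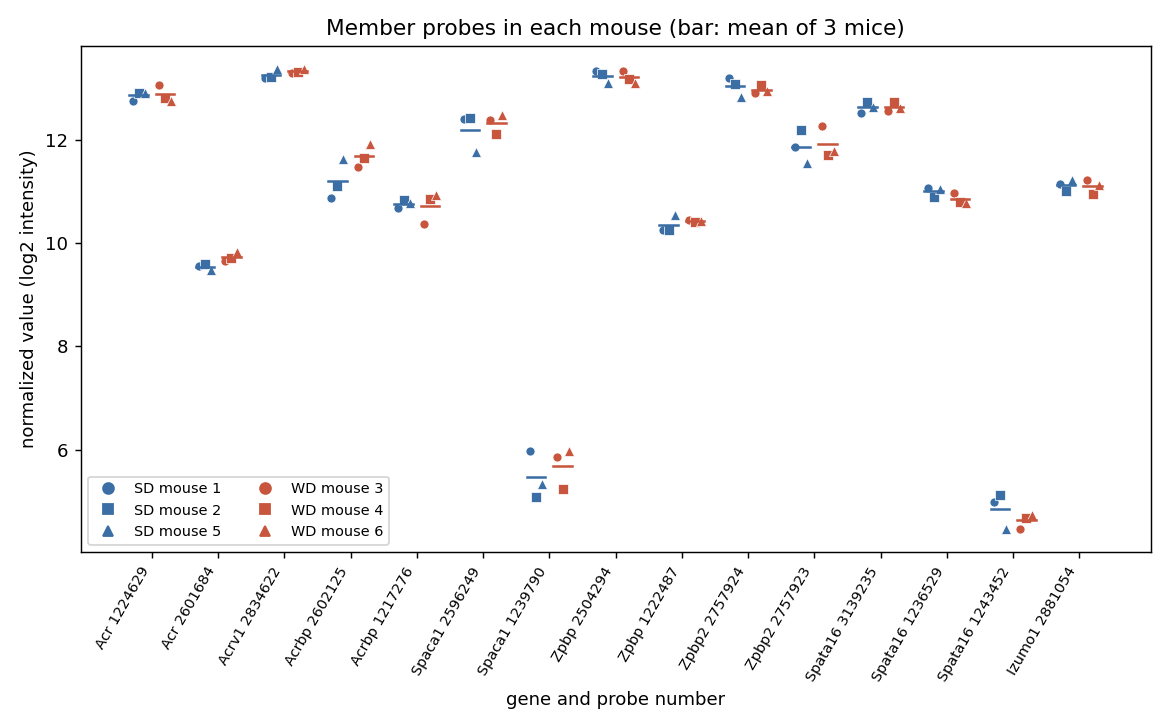
Normalized log2 intensity (vertical axis) of the 15 member probes (horizontal axis) in each mouse, SD in blue and WD in red, with symbols for single mice and bars for the means of 3 mice. The diets overlap at each tested probe but the dimmer probe of Acr, and the 2 probes near the bottom are the dim ones of Spaca1 and Spata16.

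The Western-like diet went with no change of the acrosome and fusion genes that passed the test. Of the 14 tested probes 0 had an adjusted p under 0.05 and 0 an unadjusted p under 0.05, against 0% and 5.13% of all tested probes. WD was higher at 9 probes and lower at 5, and the median log2 difference was 0.04, against 0.00 (-0.000817) over all tested probes. The difference was smaller than 0.1 at 9 probes and smaller than 0.2 at 12. The adjusted p lay between 0.935 and 0.996. The diets did not overlap at 1 of the 14 probes, against 10.2% of all tested probes. The split of signs rested on the scaling, since with median scaling 6 probes were higher and 8 lower, and with the authors' deposited log2 values 5 were higher and 9 lower.

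**Figure D2:**
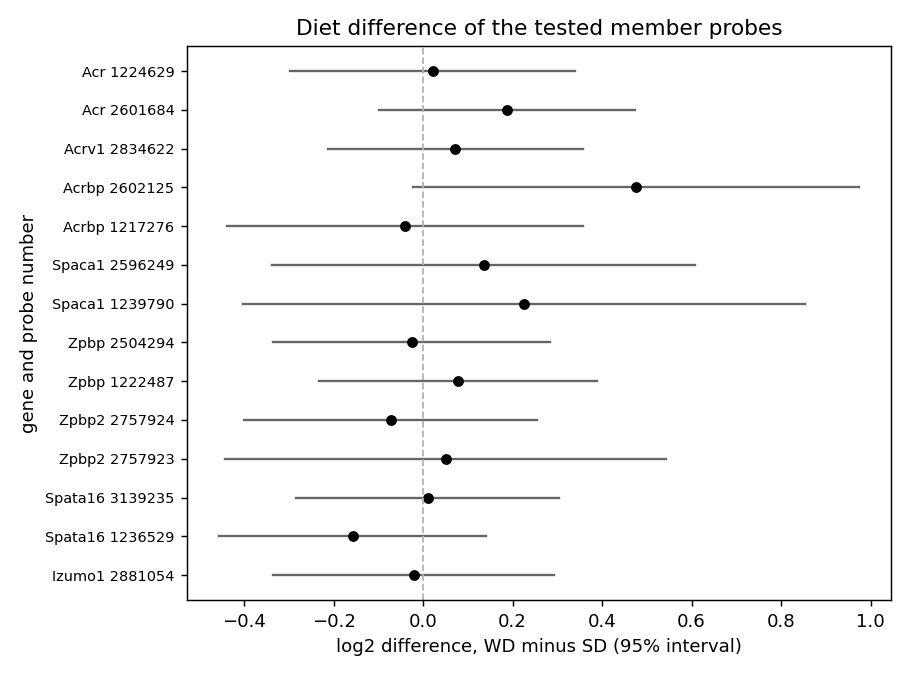
Log2 difference between the diet means, WD minus SD (horizontal axis), of the 14 tested member probes (vertical axis), with points for the estimates and lines for 95% intervals of the limma fit with 3 mice per diet. Every interval includes 0, and the widest differences are those of the brighter Acrbp probe (0.48) and the dim Spaca1 probe (0.23).

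Among the matrix proteins, Acrbp had the widest difference, 0.48 at one of its probes and -0.04 at the other. Acrbp, the proacrosin-binding protein sp32, keeps the zymogen of acrosin packed in the acrosomal granule, and mouse testis makes a full-length and a shorter form of it by alternative splicing. Its brighter probe (ILMN_2602125) gave 10.87, 11.12 and 11.64 for SD mice 1, 2 and 5, whereas WD mice 3, 4 and 6 had 11.48, 11.66 and 11.92. SD mice 1 and 2 were lowest, while SD mouse 5 was above WD mouse 3 and close to WD mouse 4, so the diets overlapped. The means were 11.21 ± 0.391 in SD and 11.68 ± 0.22 in WD (standard deviation of 3 mice each), a 1.39-fold difference with a 95% interval from 1.02-fold lower to 1.96-fold higher (limma, adjusted p = 0.935). The second Acrbp probe (ILMN_1217276) had 10.69, 10.83 and 10.78 in SD and 10.37, 10.86 and 10.94 in WD. There WD mouse 3 was the lowest of all 6 and WD mice 4 and 6 the highest, and the diet difference was -0.04 (interval -0.44 to 0.36, adjusted p = 0.987). Both probes are annotated to the same RefSeq transcript, and their positions in it were not analysed here.

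The size of the Acrbp difference at the brighter probe varied with the mice compared. Before any normalization its intensities were 2404, 2709 and 2787 in SD against 2994, 3291 and 3214 in WD, without overlap, which was so for 2.48% of all tested probes. Raw intensities are not adjusted for the brightness of each array, and the overlap after normalization came through SD mouse 5, 1 of the dim arrays. The diets also overlapped at this probe with no background correction, with median scaling and with the deposited log2 values. Without overlap were 10.2% of all tested probes in the normalized values and 10.9% with median scaling. Among mice 1 to 4 the difference was 0.57, and between WD mouse 6 and SD mouse 5, the other 2 arrays, it was 0.28. Leaving out 1 mouse gave between 0.31, without SD mouse 1, and 0.69, without SD mouse 5, with adjusted p of 0.999 and 0.636.

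The genes most like this Acrbp probe in their course over the 6 mice, by Pearson correlation with no test, were Zbtb49 (r = 0.993), Ppm1g (0.987), Sf3b3 (0.978), Ralgds (0.975) and Smim24 (0.974). They were the top of 5493 genes that varied between mice with a standard deviation of at least 0.2, of which 91 had r above 0.9, and the points share their arrays. The Zbtb49 probe was dim, at 5.01 to 5.90, and was detected on 4 of the 6 arrays, so its rank rests on values near background, while the other 4 were detected on all 6. Ppm1g, a nuclear protein phosphatase, had 10.98, 11.33 and 11.97 in SD against 11.66, 11.93 and 12.09 in WD. Its order of mice was low in SD mice 1 and 2 and high in SD mouse 5, as at the Acrbp probe. Sf3b3, a subunit of the splicing factor SF3b, ran from 9.22 in SD mouse 1 to 9.89 in WD mouse 6. The diet differences of the 5 genes lay between 0.28 and 0.46, with an adjusted p of 0.935 each. As these genes were picked for likeness to the Acrbp probe over the same mice, a like order and higher WD means follow from the pick.

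Acr and Acrv1, which encode acrosin and the matrix protein SP-10, differed little between diets. Acrosin is the serine protease of the acrosome, made as proacrosin. At its brighter probe (ILMN_1224629) Acr had 12.76, 12.92 and 12.91 in SD against 13.07, 12.82 and 12.76 in WD. WD mouse 3 was highest and the other WD mice lay within the SD range, which gave a difference of 0.02 (interval -0.30 to 0.34, adjusted p = 0.993). At the dimmer Acr probe (ILMN_2601684) the values were 9.55, 9.59 and 9.49 in SD and 9.65, 9.71 and 9.83 in WD. All 3 WD mice were above all 3 SD mice here, by a mean of 0.19 or 1.14-fold (interval -0.10 to 0.47, adjusted p = 0.935). This was the 1 member probe without overlap. With median scaling and with the deposited log2 values the diets overlapped at this Acr probe, and in both the 1 member probe without overlap was the Spata16 probe ILMN_1236529, lower in WD. Acrv1, a marker of round spermatids, had 13.21, 13.21 and 13.37 in SD and 13.31, 13.33 and 13.38 in WD at its 1 probe. SD mouse 5 lay among the WD mice, and the difference was 0.07 (interval -0.21 to 0.36, adjusted p = 0.972).

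The genes that shape the acrosome, Spaca1, Zpbp, Zpbp2 and Spata16, likewise overlapped between diets at each tested probe. SPACA1 is a protein of the inner acrosomal membrane, and mice without it have round-headed sperm. At its brighter probe (ILMN_2596249) the values were 12.40, 12.42 and 11.77 in SD against 12.39, 12.13 and 12.48 in WD. SD mouse 5 was the lowest and WD mouse 6 the highest, and these are the 2 dim arrays. The difference was 0.14 (interval -0.34 to 0.61, adjusted p = 0.971), and it was -0.15 without mice 5 and 6. At the dim probe the values were 5.98, 5.08 and 5.33 in SD and 5.85, 5.24 and 5.98 in WD, with a difference of 0.23 (adjusted p = 0.965). In SD mouse 2 and WD mouse 4 that probe was not above background.

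Zpbp and Zpbp2 encode related acrosomal proteins that bind the zona pellucida, the coat of the egg, and are needed for normal acrosome shape in mice. Zpbp had 13.34, 13.28 and 13.11 in SD against 13.35, 13.19 and 13.11 in WD at its brighter probe (ILMN_2504294). The diets covered nearly the same range there, with a difference of -0.03 (interval -0.34 to 0.28, adjusted p = 0.991). Its dimmer probe (ILMN_1222487) had 10.25, 10.26 and 10.55 in SD and 10.45, 10.40 and 10.44 in WD, a difference of 0.08 (adjusted p = 0.972). At this probe SD mouse 5 was the highest of all 6 mice, whereas at the brighter one it was the lowest, level with WD mouse 6. Zpbp2 had 13.20, 13.09 and 12.84 in SD and 12.91, 13.06 and 12.94 in WD at its brighter probe (ILMN_2757924). SD mice 1 and 2 were highest and SD mouse 5 lowest, and the difference was -0.07 (interval -0.40 to 0.26, adjusted p = 0.974). At the other probe (ILMN_2757923) the values spread more, with 11.87, 12.20 and 11.55 in SD and 12.27, 11.72 and 11.79 in WD, and the difference was 0.05 (adjusted p = 0.987).

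Spata16 encodes a protein of the Golgi apparatus and of proacrosomal vesicles, and its loss causes globozoospermia in men. At its brighter probe (ILMN_3139235) it had 12.53, 12.73 and 12.63 in SD against 12.57, 12.73 and 12.63 in WD. The means differed by 0.01 (interval -0.28 to 0.30, adjusted p = 0.996), the smallest difference of the 14 probes. At the dimmer tested probe (ILMN_1236529), annotated to another transcript, the values were 11.08, 10.90 and 11.04 in SD and 10.97, 10.81 and 10.77 in WD. WD mice 4 and 6 were below all SD mice and WD mouse 3 was not, and the difference was -0.16, or 1.12-fold lower (interval -0.46 to 0.14, adjusted p = 0.944).

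Izumo1, the sperm protein that binds its receptor JUNO on the egg and is needed for fusion, had 1 probe (ILMN_2881054). Its values were 11.14, 11.02 and 11.22 in SD against 11.23, 10.95 and 11.14 in WD. WD mice were both the highest and the lowest, and the means were 11.13 ± 0.101 in SD and 11.11 ± 0.143 in WD. The difference was -0.02, with an interval from 1.26-fold lower to 1.23-fold higher in WD (adjusted p = 0.993). A true difference anywhere inside such an interval could not be told from none with 3 mice per diet. For the brightest probes of the members other than Acrbp and Spaca1, all the intervals lay between -0.40 and 0.36.

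The 2 tested probes of a gene did not always give the same diet difference. Of the 8 genes 6 had 2 tested probes each. In 4 of these (Acrbp, Zpbp, Zpbp2 and Spata16) the diet differences of the pair had opposite signs. Of the 3826 genes with several tested probes on the array, 53% had both signs. That share also counts genes with more than 2 tested probes, where both signs arise more easily. With 6 genes the count is not read as a trait of the members. Some of the differences were close to 0, such as -0.03 and 0.08 at Zpbp. At Acrbp the pair differed most in WD mouse 3, where the brighter probe was 0.27 above and the other 0.39 below its own SD mean. At Zpbp2 WD mouse 3 was 0.14 below at one probe and 0.39 above at the other. The spread between mice of one diet was 0.318 at the brighter Acrbp probe, 0.295 at the brighter Spaca1 probe and 0.313 at the second Zpbp2 probe, as pooled standard deviations. The median of probes within 0.5 of the same level was 0.132, 0.122 and 0.126. Over the 14 member probes the median spread was 0.127, against 0.206 over all tested probes, which include many dim ones.

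**Figure D3:**
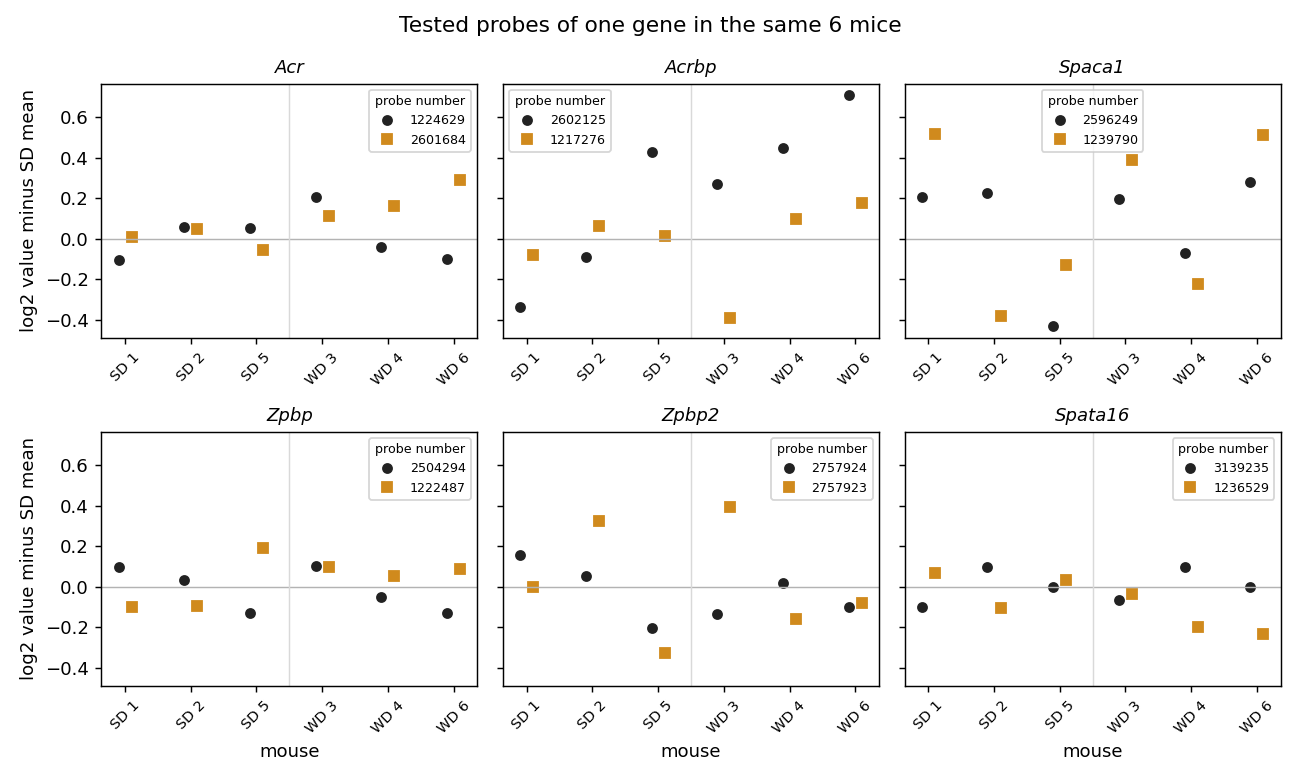
Log2 value minus the mean of the 3 SD mice (vertical axis) in each mouse (horizontal axis) for the 6 genes with 2 tested probes, circles for the brighter and squares for the dimmer probe. At Acrbp the circles reach 0.71 in WD mouse 6 while the squares fall to -0.39 in WD mouse 3.

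The members were at similar levels in all mice when summed up by their median. Relative to the SD mean, the median of the brightest probes of the 8 genes was -0.02, 0.04 and 0.03 in SD against 0.11, -0.01 and 0.00 (0.00286) in WD. WD mouse 3 was the highest, and its value was 0.00 (0.00195) with median scaling and -0.07 with the deposited log2 values. In the same mouse the medians of the Leydig and macrophage marker lists were 0.65 and 0.51. Leydig markers were at -0.01 and -0.04 in WD mice 4 and 6 and between -0.01 and 0.02 in the SD mice, and macrophage markers at 0.11 and 0.17 and between -0.13 and 0.11. Of the genes of these lists on the array, 7 of 7 Leydig and 5 of 7 macrophage genes were detected on all arrays. The spermatocyte list was at 0.09, -0.13 and 0.08 in SD and -0.23, -0.19 and 0.03 in WD, and 7 of its 8 tested genes were lower in WD. The elongating spermatid list was at 0.00 (-0.00366), 0.04 and -0.02 in SD and -0.12, -0.02 and -0.06 in WD, and 8 of its 9 tested genes were lower. Of all tested genes 48.3% were lower in WD. These counts were not taken in the other scalings, where 59.3% (median scaling) and 55.1% (deposited log2 values) of all genes were lower. Peritubular markers, of which 3 of 6 were detected on all arrays, had medians between 0.43 and 0.48 in the WD mice and between -0.10 and 0.17 in the SD mice. The Sertoli list ran from -0.01 to 0.30 in WD and from -0.05 to 0.01 in SD, that of spermatogonia from 0.13 to 0.36 and from -0.32 to 0.13, and that of endothelial cells from 0.31 to 0.36 and from -0.26 to 0.28. The medians rested on 4 tested genes each for peritubular and endothelial cells, and on 7 each for Sertoli cells and spermatogonia. The part of these lists in the values of the members was not tested.

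The diets were then compared over a wider list of acrosome and fertilization genes, which had 66 genes, of which 63 were on the array and 58 were tested, 1 probe (the brightest) per gene. Dpy19l2, Tmem95 and Dcst2 had no probe, and Cylc1, Rims1, Spaca6, Adam2 and Rnase10 were detected on too few arrays to be tested. Of the 58 genes 0 passed the adjusted threshold, 23 were higher and 35 (60.3%) lower in WD, where 51.7% of all 11264 tested genes were higher and 48.3% lower. The median difference was -0.04, against 0.01 for all genes. It depended on the scaling, at -0.12 against -0.04 for all genes with median scaling and at -0.11 against -0.01 with the deposited log2 values. An unadjusted p under 0.05 was found at 2 genes (3.45%), against 4.55% of all genes, and no overlap of the diets at 3 (5.17%), against 10.1%. With the deposited log2 values the order of the shares at unadjusted p was the other way, with 8 genes of the list (13.8%) against 5.79% of all genes. With median scaling 45 of the 58 genes and 59.3% of all genes were lower, and with the deposited log2 values 46 of the 58 and 55.1% of all genes.

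**Figure D4:**
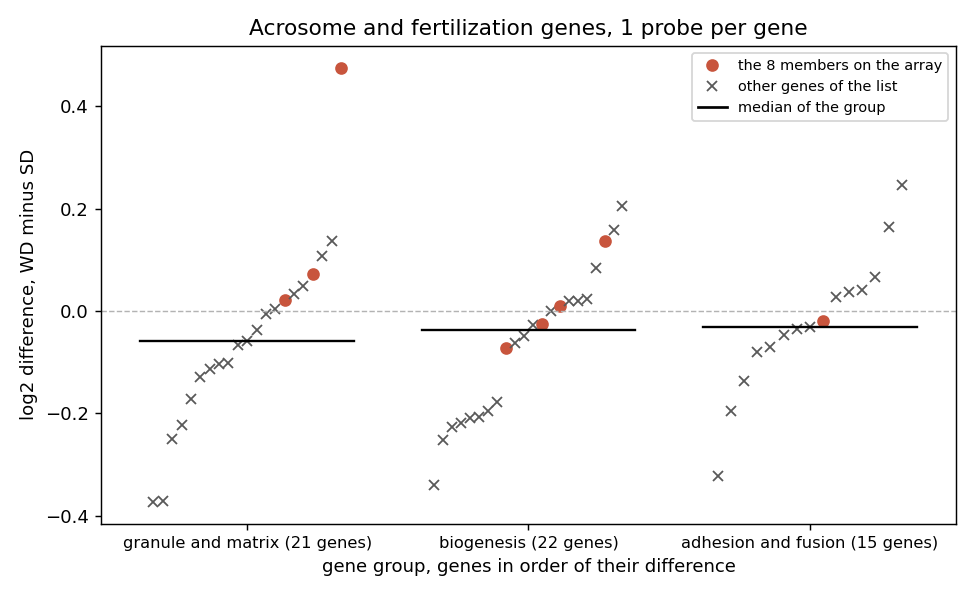
Log2 difference, WD minus SD (vertical axis), of the 58 tested genes of the wider list in 3 groups (horizontal axis), genes in order of their difference, with red circles for the 8 members and bars for the group medians. Most genes lie between -0.4 and 0.2, and Acrbp lies highest at 0.48.

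In the group listed as granule and matrix genes 8 of 21 were higher and 13 lower, with a median of -0.06. The group is wider than its name, as it also holds a membrane protease. The lowest were Sppl2c, which encodes an intramembrane protease of spermatids, and Prss37, a protease-like protein that mouse sperm need to bind the zona. Sppl2c had 11.61, 11.59 and 11.21 in SD against 11.02, 11.20 and 11.07 in WD. All WD mice were below all SD mice, with SD mouse 5 just above them, and the difference was -0.37 (adjusted p = 0.935). Prss37 had 11.46, 11.31 and 11.28 in SD and 10.80, 10.90 and 11.23 in WD, without overlap, and also differed by -0.37 (adjusted p = 0.935). After Acrbp, the highest was Lyzl6, a lysozyme-like acrosomal protein, with a difference of 0.14 (adjusted p = 0.957).

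In the group of genes for acrosome biogenesis 9 of 22 were higher and 13 lower, with a median of -0.04. Gopc, a Golgi protein whose loss gives round-headed sperm in mice, had 8.67, 8.76 and 8.88 in SD and 8.58, 8.14 and 8.57 in WD. WD mice were all below SD mice, with a difference of -0.34 (adjusted p = 0.935). Hook1, a microtubule-binding protein that is mutated in a mouse strain with misshapen sperm heads, differed by -0.25 (adjusted p = 0.942), and by -0.079 without SD mouse 1. Atg7, which acts in autophagy, and Tmed10, a cargo receptor of the early secretory pathway, were at the other end with 0.20 and 0.16 (adjusted p = 0.963 and 0.965). Atg7 was at -0.0042 without WD mouse 4 and Tmed10 at 0.062 without WD mouse 3.

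In the group of adhesion and fusion genes 6 of 15 were higher and 9 lower, with a median of -0.03. Relatives of Izumo1 were at both ends. Izumo3 had 11.68, 11.45 and 11.68 in SD and 11.12, 11.20 and 11.52 in WD, where WD mouse 6 was above SD mouse 2, a difference of -0.32 (adjusted p = 0.935). Izumo4 had 10.03, 10.03 and 10.19 in SD and 10.13, 10.49 and 10.37 in WD, where WD mouse 3 was below SD mouse 5, a difference of 0.25 (adjusted p = 0.935). Cd46, a complement regulator that rodents keep on the inner acrosomal membrane, differed by -0.19, and Adam1b, a sperm surface member of the ADAM family, by 0.17 (adjusted p = 0.965 and 0.964). Without WD mouse 4 Adam1b was at 0.024. Izumo2 differed by -0.03 (adjusted p = 0.987).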

How the data were processed

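Illumina MouseWG-6 v2.0 BeadChips measured testis RNA of 6 mice. The authors deposited linear bead intensity values exported from GenomeStudio (version not given in the sources used here), with neither background subtraction nor scaling. Per the file headers each array has a detection p-value, but the deposited values rise with intensity and were read as a score of 1 minus p. The authors' deposited log2 values were used as an alternative. They equal log2 intensities from which the array's upper quartile and a value per probe were subtracted, the latter of unknown origin (remaining standard deviation at most 0.000152), so scale and direction are settled. Their medians were -0.01725, -0.05636 and 0.001854 in SD (mice 1, 2, 5) against -0.01196, 0 and 0.007596 in WD (mice 3, 4, 6).

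Intensities were background corrected and quantile normalized with neqc of limma 3.58.1 (R 4.3.3), with an offset of 16 before log2. lmFit and eBayes compared WD minus SD, after the study's methods. The procedure was also run on simulated data with noise drawn from its own fitted model. Such a run cannot show whether that model fits these arrays. The p-values measure the spread between these mice, and the number of arrays limits the precision. Symbols came from the platform annotation (34885 probes with 1 symbol, 18 with several and 10378 with none here; 34807 matched a GRCm38.p6 gene table). All members were named with every probe. Of the wider list the 2 highest and 2 lowest genes of each group were named, and Izumo2, and the values of Ppm1g and Sf3b3 among the 5 likest genes, were chosen after they were seen. The members and lists were chosen with earlier results of these data known. Alternatives varied background, scaling, offset, filter, variance model, block and mice.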

Additional observations from a re-analysis of the deposited data

How the results depend on the processing

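The count of probes past the adjusted threshold stayed at 0 in each of the 16 alternatives, for the members and over all tested probes. The count of member probes with an unadjusted p under 0.05, 0 as reported, was 1 with no background correction, detection on all 6 arrays, an offset of 50, a variance trend, mice 5 and 6 as a block, or without mice 5 and 6, and 2 with the deposited log2 values, and Acrbp ILMN_2602125 was among them in each of these. The share over all tested probes, 5.13% as reported, lay between 4.96% and 7.62% in these settings and was 5.72% with the deposited values. The member count lay between 0 and 1 when 1 mouse was left out, where the share over all tested probes lay between 3.73% and 8.02%. For the wider list the count, 2 as reported, was 5 with no background correction, an offset of 50 or a variance trend, 4 with median scaling or the block, 8 with the deposited values, 1 with the mean of a gene's probes, and 0 to 4 with 1 mouse left out. The 5 genes are 8.62% of the list, against 5.05%, 4.66% and 5.06% of all genes in those settings, the 4 genes are 6.9%, against 4.71% and 5.61%, and the 8 genes are 13.8%, against 5.79%. With 1 mouse left out the share over all genes lay between 3.12% and 7.16%. The highest list count there, 4 without SD mouse 5, was 6.9% of the list, against 6.29% of all genes. For the mean of a gene's probes the share over all genes was not computed. The list's median, -0.04 as reported, was -0.12 with median scaling, -0.11 with the deposited values, -0.079 without mice 5 and 6 and -0.074 to -0.015 with 1 mouse left out, while the median of all genes was at -0.043, -0.015 and 0.010 in the first 3 of these settings. Over all probes the unadjusted count, 1013 as reported, was 2213 with no filter (4.89% of 45281 probes, against 5.13% of 19763). With 1 mouse left out it was 718 to 1531 (3.73% to 8.02% of the probes tested there). Of the member genes with 2 tested probes, 2 to 4 had opposite signs.

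Small member differences changed sign, as did those of Atg7 and Cd46, which are in the wider list and are not members. With median scaling and with the deposited values Acr ILMN_1224629 was at -0.070 and -0.072, Spata16 ILMN_3139235 at -0.077 and -0.078, and Zpbp2 ILMN_2757923 at -0.025 and -0.027, and Acrv1 was at -0.0023 with the deposited values. Without mice 5 and 6 Izumo1 was at 0.012, Spaca1 ILMN_2596249 at -0.15 and Zpbp2 ILMN_2757923 at -0.048. With 1 mouse left out the difference ran from -0.069 to 0.083 for Acr ILMN_1224629, -0.15 to 0.14 for Acrbp ILMN_1217276, -0.0042 to 0.37 for Atg7, -0.39 to 0.0076 for Cd46, -0.084 to 0.056 for Izumo1, -0.081 to 0.25 for Spaca1 ILMN_2596249, -0.039 to 0.060 for Spata16 ILMN_3139235, -0.094 to 0.027 for Zpbp ILMN_2504294, -0.12 to 0.22 for Zpbp2 ILMN_2757923 and -0.18 to 0.0070 for Zpbp2 ILMN_2757924. The cause was not tested. No paired analysis was possible because titles number each mouse once over both diets, and descriptions have just 1 number in common. The dim Spaca1 probe was close to background, which limits its values.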
